A study of Mus musculus with 16 samples.

Results

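The genes of oxidative phosphorylation encode the subunits of the 4 respiratory chain complexes and of ATP synthase in the inner mitochondrial membrane. They were taken from the annotation of a mouse cDNA array by gene symbol: every probe with a single symbol that begins with Nduf, Uqcr, Atp5 or Cox followed by a digit of 4 to 8, or that reads Sdha, Sdhb, Sdhc, Sdhd, Cycs or Cyc1. This gave 109 probes for 79 genes, out of 14030 probes for 9930 genes with a single symbol. Of the 79 genes, 63 had enough values to be tested, among 12420 features of which 7832 carried a gene symbol. The rule reads gene symbols alone.

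Azacytidine resembles cytidine, enters newly made RNA and DNA, and there binds DNA methyltransferases so that methylation is lost. NIH3T3 is an established line of mouse embryonic fibroblasts, and Erbb2 encodes a receptor tyrosine kinase that acts as an oncogene when overexpressed. 3 kinds of array were compared: Erbb2-transfected NIH3T3 cells at 10 µM azacytidine (8 arrays), Erbb2-transfected NIH3T3 cells at 5 µM (4 arrays), and untransfected NIH3T3 cells at 10 µM (4 arrays). On every array the treated cells of a line were set against its own untreated cells in a second dye, and a dye swap covered 50% of the arrays of each group. The labels give neither the duration of treatment, nor the promoter of the Erbb2 transgene, nor whether the transfected cells are a single clone, nor whether replicate arrays hold RNA of different cultures. The p-values below therefore measure the spread between arrays, which may be technical.

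All values are given on the log2 scale as treated over untreated, with the standard error of limma's estimate after the ± sign. The deposited ratios carry no stated direction. They were read as Cy5 over Cy3, and the sign was turned on each array whose treated RNA carried Cy3, which makes each direction given here a likely one and not a settled one. The 4 untransfected arrays carry a further doubt: the labels give both channels of each the same dye, and every sign of that group turns if its treated cells carried the other dye. A gene passed the test at a limma adjusted p under 0.05, with the Benjamini-Hochberg adjustment over all 12420 features. Signal intensities are not used here, so the ratios give no level, and fewer cells of a type cannot be told apart from less RNA per cell.

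Respiration moves electrons from NADH into complex I and from succinate into complex II, on through ubiquinone to complex III, through cytochrome c to complex IV, and finally to oxygen. Complexes I, III and IV pump protons, and complex V, the ATP synthase, uses the proton gradient to make ATP. All of the proteins studied here are encoded in the nucleus and imported. A few core subunits of complexes I, III, IV and V are encoded in mitochondrial DNA, for which the array annotation held 0 probes. Cycs, which encodes somatic cytochrome c, had no probe under that symbol.

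Between 16153 and 18507 ratios were present per array, and the interquartile range of its deposited ratios ran from 0.706 to 1.36. Replicate arrays resembled each other weakly. Pearson's r across all features lay between -0.03 and 0.09 for pairs of arrays in Erbb2 cells at 10 µM. It lay between -0.02 and 0.07 for those at 5 µM, and between 0.06 and 0.15 for pairs of untransfected arrays. In the 10 µM Erbb2 group the median r was 0.028 for pairs sharing a dye arrangement and -0.001 for pairs with exchanged dyes. The matching medians were 0.070 and 0.007 in the 5 µM Erbb2 group. For the untransfected arrays they were 0.137 and 0.088. Erbb2 arrays with exchanged dyes thus hardly resembled each other. The bearing of this on the fitted values was not tested. The median standard error of a respiratory gene was 0.219 in Erbb2 cells at 10 µM and 0.307 in each of the other groups. The number of arrays limits the precision: the 95% interval lay wholly within a log2 value of 1 either side of 0 for 46, 37 and 35 of the 63 genes in Erbb2 cells at 10 µM and 5 µM and in untransfected cells.

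The untransfected cells asked what the drug does to this fibroblast line without the oncogene. In these cells 3 respiratory chain genes fell after azacytidine and 0 rose: Ndufa6 of complex I, Uqcrq of complex III and Atp5l of complex V. The 3 genes are 4.76% of the 63, against 2.13% of all features called lower (265 of 12420) and 2.73% called in either direction (339). At an unadjusted limma p under 0.05 there were 11 respiratory genes, all lower, or 17.5% of the 63 against 11.5% of all features. The median over the 63 genes was -0.20, with 46 below 0, against a median of 0.03 over all features, of which 53.1% were above 0. Without any 1 of the 4 untransfected arrays a single respiratory gene passed, Ndufa6, which is 1.59% of the 63, against 1.71% to 2.16% of all features in those fits. With the untransfected arrays fitted on their own, 0 of the genes and 0 of all features passed.

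Ndufa6 encodes an accessory subunit of complex I that belongs to the LYR-motif family and holds a mitochondrial acyl carrier protein. Its log2 ratio was 0.06, 0.31, 0.10, -0.05, -0.08, -0.07, 0.11 and -0.28 on the 8 arrays of Erbb2 cells at 10 µM. At 5 µM it was 0.19, -0.09, -0.24 and -0.12, and in untransfected cells -1.32, -1.06, -0.80 and -0.51. All 4 untransfected arrays, of both dye arrangements, lay below every array of the Erbb2 cells, which scattered around 0. The fitted value of Ndufa6 was 0.01 ± 0.11 in Erbb2 cells at 10 µM and -0.06 ± 0.16 at 5 µM, neither past the test. In untransfected cells it was -0.92 ± 0.16, a fold of 0.527, with a limma adjusted p of 0.0046. Leaving out any 1 of the 4 untransfected arrays kept Ndufa6 past the threshold, at adjusted p from 0.00712 to 0.0434.

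Uqcrq encodes a small subunit of complex III that lies beside cytochrome b. It was measured as the mean of 2 probes. In Erbb2 cells at 10 µM its log2 ratio was 0.26, 0.66, -0.13, 0.62, 0.07, 1.27, 0.67 and 0.25. At 5 µM it was 0.28, 0.31, 0.38 and -0.19, and in untransfected cells -0.58, -1.0, -0.88 and -1.13. The untransfected arrays again lay below all 12 arrays of the Erbb2 cells, of which 10 were above 0. The fitted value was 0.46 ± 0.15 in Erbb2 cells at 10 µM (limma adjusted p = 0.229) and -0.90 ± 0.21 in untransfected cells, a fold of 0.536 (limma adjusted p = 0.0315). Taken alone, neither of its probes passed in untransfected cells, with -0.67 ± 0.19 and -1.13 ± 0.33 (limma adjusted p = 0.0741 and 0.0989). A further Uqcrq probe had too few values to be tested and read the other way, at 1.07 and 1.40 on 2 untransfected arrays. Without any 1 of the 4 untransfected arrays Uqcrq no longer passed, at adjusted p from 0.0578 to 0.162.

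Atp5l encodes subunit g of the membrane part of ATP synthase, which sits where 2 synthases meet in the row of dimers along the cristae. Its log2 ratio was 0.13, 0.18, 0.09, -0.13, -0.34, 0.16, 0.15 and 0.14 in Erbb2 cells at 10 µM. It was 0.15, -0.01, 0.23 and 0.12 at 5 µM, and -0.76, -0.46, -0.66 and -0.54 in untransfected cells. The 4 untransfected arrays were close to each other and below every array of the Erbb2 cells. The fitted values were 0.05 ± 0.10, 0.12 ± 0.14 and -0.61 ± 0.14 in the 3 groups, the last a fold of 0.657 with a limma adjusted p of 0.0315. Without any 1 of the untransfected arrays the adjusted p of Atp5l lay between 0.0748 and 0.159, so its call rests on all 4. It also missed the threshold when probes with fewer values were let in (adjusted p = 0.0592). A second Atp5l probe had too few values to be tested and did not follow the first: it read 0.47, 0.07, -1.01 and -0.08 on the untransfected arrays. If the dye of that group is read the other way, each of the 3 genes has the opposite sign there. Ndufa6 then runs from 0.51 to 1.32 and Atp5l from 0.46 to 0.76, above all arrays of Erbb2 cells at 10 µM, whereas Uqcrq runs from 0.58 to 1.13 and overlaps them.

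**Figure D1:**
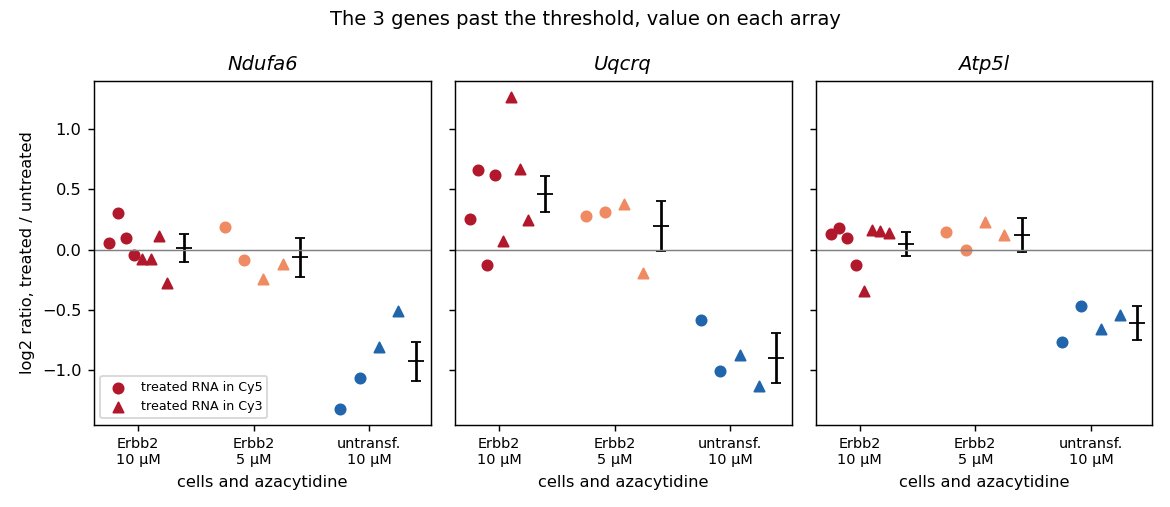
Log2 ratio of treated over untreated cells on each array for Ndufa6, Uqcrq and Atp5l, with the groups from left to right Erbb2 cells at 10 µM, Erbb2 cells at 5 µM and untransfected cells at 10 µM. Circles are arrays with the treated RNA in Cy5, triangles those with it in Cy3, and the black bars are the fitted value ± its standard error. The 4 untransfected points of each gene lie below all points of the Erbb2 cells in the dye reading used here. In the other reading those of Uqcrq, at 0.58 to 1.13, overlap the Erbb2 cells at 10 µM.

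The promoters of 2 of these genes are shown because azacytidine acts on the methylation of cytosines in CG pairs, and because nuclear genes of respiration are known for sites of the factors NRF1, YY1 and the ETS family near their starts. The windows run from 250 bases before to 50 bases after the transcription start, 5′ to 3′ on the gene's own strand, from RefSeq on GRCm38.p6. Atp5l lies on chromosome 9 (chr9:44920693-44920992, minus strand) and Ndufa6 on chromosome 15 (chr15:82354242-82354541, minus strand). Capitals mark the letters CCGGAAG of the ETS family, here found on the opposite strand, in Atp5l, and the letters of NRF1 (GCGC, any 1 base, TGCGC) in Ndufa6.
Atp5l: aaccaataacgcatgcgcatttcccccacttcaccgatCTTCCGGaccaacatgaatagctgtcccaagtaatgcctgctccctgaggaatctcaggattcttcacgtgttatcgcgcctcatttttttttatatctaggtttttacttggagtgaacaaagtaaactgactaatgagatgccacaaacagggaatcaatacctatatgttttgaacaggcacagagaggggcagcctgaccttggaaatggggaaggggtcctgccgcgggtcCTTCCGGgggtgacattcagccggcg
Ndufa6: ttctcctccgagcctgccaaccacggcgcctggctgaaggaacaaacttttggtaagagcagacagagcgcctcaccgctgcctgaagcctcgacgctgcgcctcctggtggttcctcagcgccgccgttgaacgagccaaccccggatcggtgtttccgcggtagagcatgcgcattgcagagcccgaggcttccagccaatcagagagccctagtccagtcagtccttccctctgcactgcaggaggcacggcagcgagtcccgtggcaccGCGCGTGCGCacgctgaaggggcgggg
The Atp5l window held 12 CG pairs and the ETS letters at bases 39 to 45 and 275 to 281 of the window. The Ndufa6 window held 27 CG pairs and the NRF1 letters at bases 274 to 283. A match is a description of the letters and not a bound site. Methylation was not measured in this study.

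Across the tested genes, 50 of 63 had a promoter window in the same table. Their median was 20 CG pairs per 300-base window, against 7 over the windows of 27025 mouse genes. Searched on both strands, the NRF1 letters occurred in 13 of the 50 windows (26%, against 4.78% of all genes), CCGGAAG of the ETS family in 14 (28%, against 9.12%), and the YY1 letters, AAGAT followed directly by GGCG, in 5 (10%, against 1.49%). Of 20 complex I windows 1 held the ETS letters and 4 the YY1 letters, and of 12 complex V windows 5 held the ETS letters.

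The contrast between the lines asked whether 10 µM azacytidine acted differently in Erbb2 cells and in untransfected cells. The genes Uqcrq and Ndufa6 had a higher response in Erbb2 cells, and 0 had a lower one. They are 3.17% of the 63, against 0.628% of all features higher (78 of 12420) and 0.813% in either direction (101). The difference, Erbb2 minus untransfected cells, was 1.36 ± 0.26 for Uqcrq (limma adjusted p = 0.0208) and 0.94 ± 0.20 for Ndufa6 (limma adjusted p = 0.0404). At an unadjusted limma p under 0.05 there were 12 genes, 11 higher and 1 lower, or 19.0% of the 63 against 9.72% of all features. The median difference was 0.30, with 50 of 63 above 0, against -0.03 over all features. It was 0.29 for the proteins of the cytosolic ribosome, with 48 of 59 above 0. For those of the mitochondrial ribosome it was -0.05, with 23 of 53 above 0, and for 9 fibroblast markers 0.62, with 7 above 0. Because the untransfected arrays enter this contrast, it depends on the reading of their dye. In the other reading the median difference of the respiratory genes was -0.02, with 30 of 63 above 0, against 0.03 over all features. Then 1 gene passed, Ndufa6, as lower (-0.91), against 2.83% of all features, and Uqcrq was at -0.44 with a limma adjusted p of 0.585. Leaving out 1 array at a time, 0 of the genes passed without array 2 or 4 of the Erbb2 cells or array 2 or 3 of the untransfected cells, and 2 passed without array 6 (Uqcrq and Cox8a) or 8 (Uqcrq and Ndufa6) of the Erbb2 cells. Without any other array of these groups 1 gene passed. Of all features 0.486% to 0.572% passed in the fits with 0 genes, and 0.447% to 0.703% in those with 1. No share is given here for the fits with 2 genes, so their count is not set against all features. Uqcrq passed in 7 of the 12 fits and Ndufa6 in 2.

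**Figure D2:**
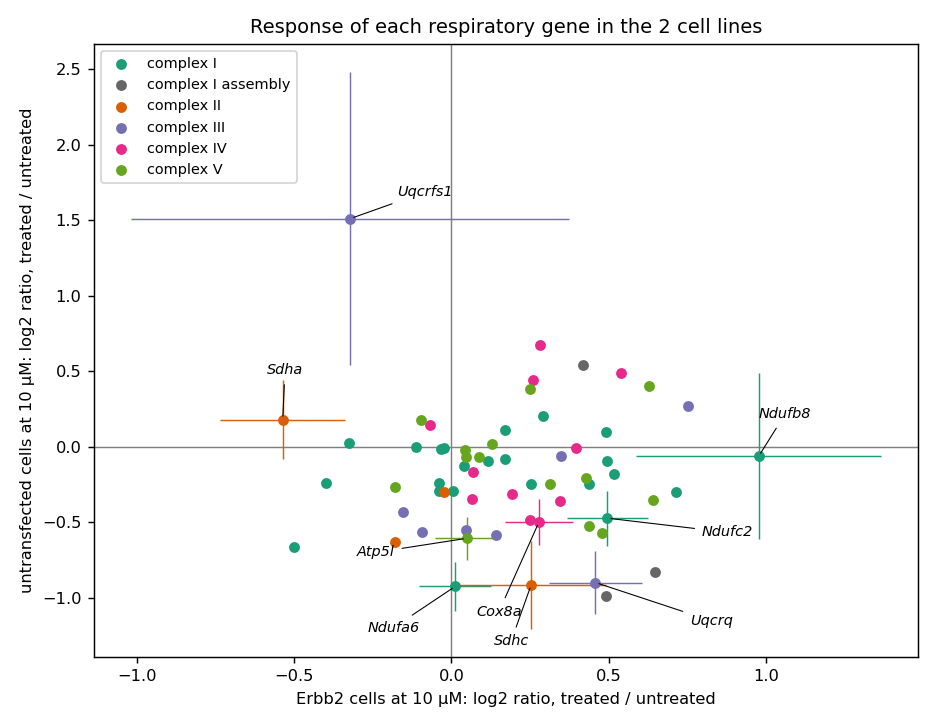
Fitted log2 ratio of each of the 63 genes in Erbb2 cells at 10 µM (horizontal axis) and in untransfected cells at 10 µM (vertical axis), coloured by complex, with standard errors drawn for the 9 named genes. Ndufa6, Uqcrq and Atp5l lie in the lower part, at -0.92, -0.90 and -0.61 on the vertical axis, while their horizontal positions are 0.01, 0.46 and 0.05.

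Atp5l missed the threshold between the lines at 0.65 ± 0.17 (limma adjusted p = 0.129). Others with an unadjusted p under 0.05 that did not pass included Ndufc2 at 0.97 ± 0.22, Cox8a at 0.78 ± 0.18, Atp5c1 at 0.96 ± 0.25 and Sdhc at 1.17 ± 0.38, with limma adjusted p of 0.0679, 0.08, 0.115 and 0.273. With only the features that have a value on all 16 arrays, a smaller set, 6 of 39 respiratory genes passed in this contrast, against 189 of all features (2.64%): Uqcrq, Ndufa6, Ndufc2, Cox8a, Atp5c1 and Atp5l. In the other dye reading Ndufc2, Cox8a, Atp5c1, Sdhc and Atp5l stood at 0.02, -0.22, -0.09, -0.66 and -0.56. The other differences larger than 1 in size, with wider errors, were 1.48 ± 0.79 for Ndufaf1, 1.48 ± 0.86 for Ndufaf6, 1.05 ± 0.52 for Atp5b, 1.04 ± 0.67 for Ndufb8, 1.01 ± 0.43 for Ndufb9 and -1.83 ± 1.17 for Uqcrfs1, none past the test. Sdha was the only gene with a lower response in Erbb2 cells at an unadjusted p under 0.05. Its difference was -0.72 ± 0.33 (limma adjusted p = 0.505). Its dye term was larger in size, at -1.06 ± 0.27, and also did not pass (limma adjusted p = 0.464).

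In Erbb2 cells at 10 µM, the group with the most arrays, no respiratory gene passed limma's test, while 157 of 12420 features did (1.26%). The smallest adjusted p was 0.0916, for Ndufc2. At an unadjusted limma p under 0.05 there were 12 genes, 11 higher and 1 lower, or 19.0% of the 63 against 10.8% of all features. The median log2 ratio was 0.17, with 46 of 63 above 0, against a median of 0.00 over all features, of which 49.4% were above 0. On the features with a value on all 16 arrays, 2 of 39 genes passed as higher, Ndufc2 at 0.50 and Cox6a1 at 0.49, against 247 of all features (3.46%). That filter drops probes before a gene's probes are averaged, and with the probes of the main fit Cox6a1 was at 0.26.

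In Erbb2 cells at 5 µM no respiratory gene passed limma's test, with a smallest adjusted p of 0.726, against 26 features in all (0.209%). A single gene, Ndufa13, had an unadjusted limma p under 0.05, which is 1.59% of the 63 against 6.33% of all features. The median was 0.05, against -0.02 over all features. The dose contrast, 10 µM minus 5 µM, held 0 features past limma's test (0%), and 2 respiratory genes, Uqcr10 and Ndufaf5, had an unadjusted p under 0.05, both higher at 10 µM. They are 3.17% of the 63, against 4.33% of all features. A difference between the doses was not detectable for any of the 63 genes at this number of arrays.

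**Figure D3:**
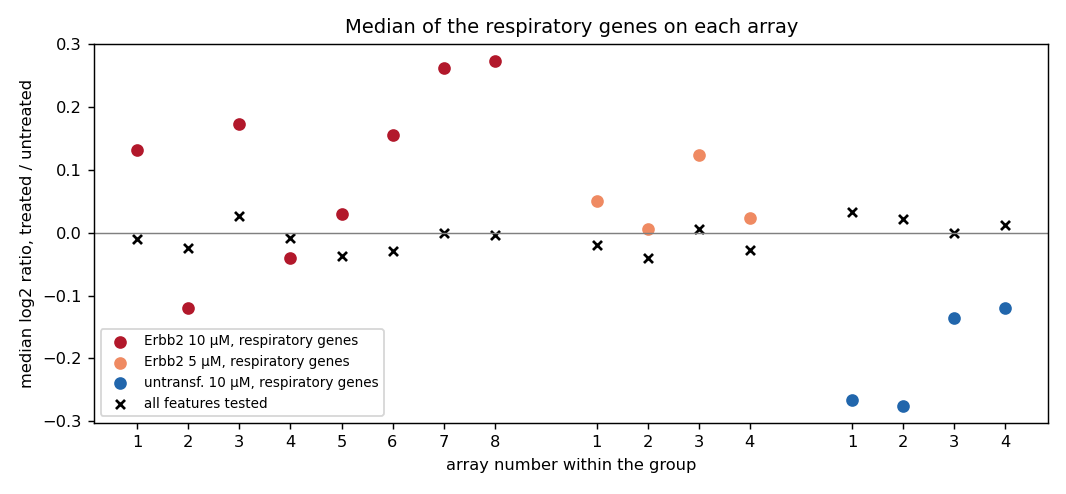
Median log2 ratio of the tested respiratory genes on each array (points), with the median of all features on the same array for comparison, in Erbb2 cells at 10 µM, Erbb2 cells at 5 µM and untransfected cells at 10 µM. The medians of the respiratory genes run from -0.12 to 0.27, from 0.01 to 0.12 and from -0.28 to -0.12.

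Taken array by array, the median over the respiratory genes lay between -0.12 and 0.27 in Erbb2 cells at 10 µM, above 0 on 6 of 8 arrays. It lay between 0.01 and 0.12 at 5 µM, above 0 on all 4, and between -0.28 and -0.12 in untransfected cells, below 0 on all 4. The mean of these medians was 0.11 ± 0.14 at 10 µM (SD, n = 8), 0.05 ± 0.05 at 5 µM (SD, n = 4) and -0.20 ± 0.08 in untransfected cells (SD, n = 4). The arrays of the 2 lines at 10 µM met at -0.12. In the other dye reading those of the untransfected cells run from 0.12 to 0.28, which overlaps the Erbb2 cells. The median of all features stayed between -0.04 and 0.03 on every array.

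Complex I, which takes electrons from NADH, was covered by 23 of its 31 annotated subunit genes. The median over these 23 was 0.12 in Erbb2 cells at 10 µM, 0.02 in those at 5 µM and -0.13 in untransfected cells, with 15, 12 and 5 genes above 0. Ndufa6 was the only subunit past the test. Ndufc2, an accessory subunit of the membrane arm, had ratios of 0.29, 0.28, 0.43, 0.30, 0.16, 1.01, 0.92 and 0.58 in Erbb2 cells at 10 µM. It was the only respiratory gene above 0 on all 8 of these arrays. At 5 µM it read 0.04, 0.35, 0.54 and 0.26, and in untransfected cells -0.40, -0.58, 0.03 and -0.93, so that a single untransfected array reached 0. The fitted values of Ndufc2 were 0.50 ± 0.13, 0.30 ± 0.18 and -0.47 ± 0.18, none past the test.

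Ndufa1, a small X-linked subunit needed for assembly of the membrane arm, was at 0.52 ± 0.15, 0.24 ± 0.21 and -0.18 ± 0.21 in Erbb2 cells at 10 µM and 5 µM and in untransfected cells. Its ratios in Erbb2 cells at 10 µM ran from -0.01 to 1.25 with a median of 0.35, and those of the untransfected cells from -0.28 to -0.06. The ranges did not overlap in the dye reading used here, and do so in the other. No value passed limma's test (adjusted p = 0.154 in Erbb2 cells at 10 µM). Ndufb9, another accessory subunit of the LYR-motif family, had 0.71 ± 0.25, 0.75 ± 0.35 and -0.30 ± 0.35. Ndufa13, an accessory subunit also known as a cell death regulator, had 0.59, 0.70, 0.48 and 0.76 at 5 µM, for a value of 0.63 ± 0.27 (limma adjusted p = 0.726). At 10 µM its 7 measured arrays spread from -0.61 to 1.02, and it was at 0.25 ± 0.21. Of the iron-sulfur subunits that carry the electrons, Ndufs1 was at -0.09 ± 0.27 and Ndufs7 at 0.02 ± 0.31 in untransfected cells. Ndufs8 was at -0.29 ± 0.56 there, with arrays spread from -1.30 to 1.11. In Erbb2 cells at 10 µM and 5 µM Ndufs1 was at 0.12 and -0.05, and Ndufs8 at 0.01 and 0.16. Ndufs7 was at -0.33 and -0.53 in these groups, with its arrays at 5 µM between -1.09 and -0.03. None of these passed limma's test. The 8 complex I subunits without enough values were Ndufa3, Ndufb5, Ndufb7, Ndufb11, Ndufc1, Ndufs3, Ndufv1 and Ndufv2.

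The symbols beginning with Ndufaf name assembly factors that build complex I and are not part of it, and 3 of 5 could be tested. Their standard errors were among the larger ones. Ndufaf1, which helps to assemble the membrane arm, was at 0.49 ± 0.46, 0.10 ± 0.65 and -0.99 ± 0.65 in Erbb2 cells at 10 µM and 5 µM and in untransfected cells. Ndufaf5, which modifies an arginine of Ndufs7, was at 0.42 ± 0.23, -0.55 ± 0.33 and 0.54 ± 0.33, a dose difference of 0.97 ± 0.40 with an unadjusted limma p of 0.03 and an adjusted p of 0.998. Ndufaf6 was at 0.65 ± 0.55, -0.68 ± 0.67 and -0.83 ± 0.67. In Erbb2 cells at 10 µM the value of Ndufaf1 was -0.04 without array 7, which read 4.47, and that of Ndufaf6 was -0.06 without array 8, which read 4.31. In untransfected cells Ndufaf1 was at -0.41 without array 1, which read -3.115. Ndufaf6 was at -0.70 there without array 2, which read -1.61. Ndufaf3 and Ndufaf7 lacked enough values.

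Complex II, succinate dehydrogenase, is shared by the respiratory chain and the citric acid cycle, and all 4 of its subunits were tested. None passed limma's test. An unadjusted p under 0.05 was reached by 1 in Erbb2 cells at 10 µM, by 0 at 5 µM and by 2 in untransfected cells, against 10.8%, 6.33% and 11.5% of all features. The 2 membrane anchors, which hold the haem and the ubiquinone site, had the lowest values in untransfected cells. Sdhc lay between -0.19 and 1.11 on the 6 measured arrays of Erbb2 cells at 10 µM, and at -1.54, -0.52, -0.80 and -0.79 in untransfected cells, all below that range in the dye reading used here and overlapping it in the other. Its fitted values were 0.25 ± 0.24 in Erbb2 cells at 10 µM, -0.19 ± 0.29 in those at 5 µM and -0.91 ± 0.29 in untransfected cells (limma adjusted p = 0.17). Sdhd was at -0.18 ± 0.12 and 0.06 ± 0.16 in Erbb2 cells at 10 and 5 µM. It read -0.30, -0.62 and -1.07 on the 3 untransfected arrays that measured it, for -0.63 ± 0.19 (limma adjusted p = 0.134). Sdhb, the iron-sulfur subunit, was at -0.02 ± 0.22, 0.04 ± 0.31 and -0.30 ± 0.31. Sdha, the flavoprotein that oxidises succinate, was lowest in the other line. In Erbb2 cells it was at -0.54 ± 0.20 at 10 µM (limma adjusted p = 0.325) and 0.00 ± 0.26 at 5 µM. In untransfected cells it was at 0.18 ± 0.26. The last 2 values average over a split by dye. At 5 µM Sdha read -1.55 and -0.20 on the Cy5 arrangement, against 0.83 and 0.93 on the Cy3 arrangement. In untransfected cells it read -0.26 and -0.42, against 0.48 and 0.91. Its dye term had the smallest adjusted p of the tested respiratory genes, at -1.06 ± 0.27, and did not pass (limma adjusted p = 0.464).

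Complex III passes electrons from ubiquinol to cytochrome c, and all 8 of its annotated subunits were tested. The median was 0.09 in Erbb2 cells at 10 µM, 0.02 in those at 5 µM and -0.49 in untransfected cells, where 6 of 8 were below 0 and Uqcrq passed. Cyc1, cytochrome c1, was at 0.14 ± 0.15 in Erbb2 cells at 10 µM and -0.03 ± 0.22 at 5 µM. In untransfected cells it read -0.49, -1.04, -0.47 and -0.32, for -0.58 ± 0.22 (limma adjusted p = 0.254). The 2 Cyc1 probes gave nearly the same value in untransfected cells with different errors, -0.59 ± 0.14 and -0.58 ± 0.39, and the first would have passed on its own when probes were tested without averaging (limma adjusted p = 0.03). Uqcrh, the hinge protein between cytochrome c1 and cytochrome c, was at -0.15 ± 0.11, 0.03 ± 0.16 and -0.43 ± 0.16, with all 4 untransfected arrays below 0.

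The complex III genes Uqcrc2, Uqcrfs1 and Uqcr10 varied widely between arrays. Uqcrc2, a core protein, ran from -2.34 to 4.10 over the 8 arrays of Erbb2 cells at 10 µM, and was at 0.04 ± 0.47, 1.57 ± 0.77 and -0.55 ± 0.66 in the 3 groups. Uqcrfs1, the Rieske iron-sulfur protein, was at -0.32 ± 0.70, 1.40 ± 0.83 and 1.51 ± 0.97. It read -1.34, 3.52 and 2.10 on the 3 untransfected arrays that measured it. Uqcr10, a small subunit near the Rieske protein, was above 0 on 6 of 8 arrays of Erbb2 cells at 10 µM and on 1 of 4 at 5 µM, at 0.75 ± 0.28 and -0.55 ± 0.40. That dose difference of 1.30 ± 0.49 had an unadjusted limma p of 0.018 and an adjusted p of 0.998.

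Complex IV, cytochrome c oxidase, reduces oxygen, and 11 of its 16 annotated nuclear genes were tested. The median was 0.26 in Erbb2 cells at 10 µM, with 10 of 11 above 0, 0.11 in those at 5 µM and -0.17 in untransfected cells, with 4 of 11 above 0. None passed limma's test, and an unadjusted p under 0.05 was reached by 2 genes in each line at 10 µM and by 0 at 5 µM, against 10.8% of all features in Erbb2 cells and 11.5% in untransfected cells at 10 µM and 6.33% at 5 µM. Cox8a, the form of the smallest subunit found in most tissues, read 0.26, 0.28, 0.17, 0.62, 0.12, -0.07, 0.42 and 0.43 in Erbb2 cells at 10 µM. It read 0.19, -0.06, 0.30 and 0.44 at 5 µM, and -0.58, -0.63, -0.38 and -0.40 in untransfected cells. The untransfected arrays lay below all 12 arrays of the Erbb2 cells, but overlap those at 10 µM in the other dye reading. The fitted values of Cox8a were 0.28 ± 0.11, 0.22 ± 0.15 and -0.50 ± 0.15 (limma adjusted p = 0.124 in untransfected cells). Cox7b, a small subunit needed for assembly, was at 0.25 ± 0.16, 0.25 ± 0.23 and -0.48 ± 0.23. Cox6c was at 0.40 ± 0.18, 0.20 ± 0.29 and -0.01 ± 0.25. Cox6a1, the form of subunit 6a found outside heart and skeletal muscle, was at 0.26 ± 0.16, 0.33 ± 0.23 and 0.44 ± 0.23. The last value of Cox6a1 averages over a split by dye. In untransfected cells Cox6a1 read 0.94 and 1.19 on the Cy5 arrangement, against -0.21 and -0.14 on the Cy3 arrangement. The genes without enough values were Cox7c and 4 tissue-restricted forms, Cox6b2, Cox7a1, Cox8b and Cox8c.

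Complex V, the ATP synthase, was tested for 14 of 15 genes, with only Atp5g3 lacking values. The median was 0.19 in Erbb2 cells at 10 µM, with 12 of 14 above 0, 0.15 in those at 5 µM and -0.14 in untransfected cells, with 4 above 0. The catalytic head showed no call: Atp5a1, the alpha subunit, was at -0.18 ± 0.20, -0.06 ± 0.28 and -0.27 ± 0.28, and Atp5b, the catalytic beta subunit, at 0.48 ± 0.30, 0.17 ± 0.42 and -0.57 ± 0.42. Without array 6, which read 3.47, Atp5b was at 0.07 in Erbb2 cells at 10 µM. Atp5c1, the gamma subunit that turns inside the head, read 0.12, -0.33, 1.21, 0.54, 0.71, 0.42, 0.26 and 0.58 in Erbb2 cells at 10 µM. In untransfected cells it read -0.55, -0.40, -0.66 and -0.50, so that all 4 arrays lay below all 8. In the other dye reading these 4 run from 0.40 to 0.66, within the range of the 8. Its values were 0.44 ± 0.14 in Erbb2 cells at 10 µM, 0.21 ± 0.20 in those at 5 µM and -0.53 ± 0.20 in untransfected cells (limma adjusted p = 0.242 in Erbb2 cells at 10 µM and 0.288 in untransfected cells).

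In the stalk that holds the head still, Atp5pb, subunit b, was at 0.04 ± 0.11, 0.24 ± 0.16 and -0.02 ± 0.16, and Atp5o, the oligomycin sensitivity conferring protein, at 0.31 ± 0.26, 0.53 ± 0.37 and -0.24 ± 0.37. Without array 6 Atp5o was at 0.09 in Erbb2 cells at 10 µM. Atp5e, the small epsilon subunit of the central stalk, had the opposite sign to most of the complex in each group, at -0.10 ± 0.09, -0.13 ± 0.13 and 0.18 ± 0.13, none of them past the test. Of the membrane part, Atp5md, which helps the dimers to form, was at 0.63 ± 0.26, 0.29 ± 0.40 and 0.40 ± 0.35, and Atp5l alone passed, in untransfected cells. Atp5l and Atp5md differed in sign there.

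**Figure D4:**
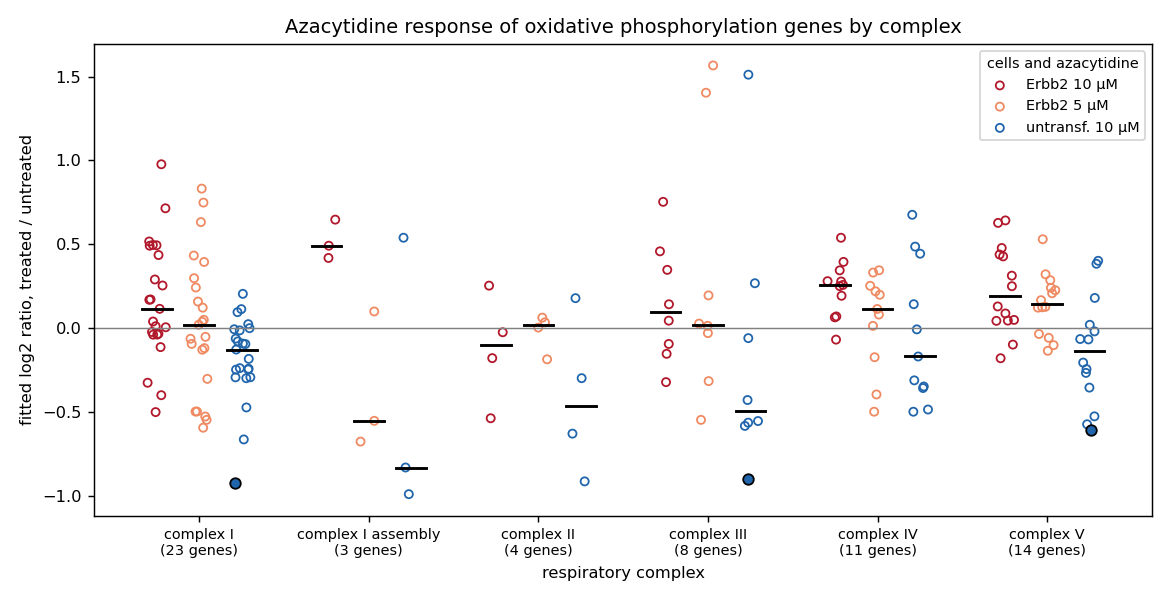
Fitted log2 ratio of each tested gene, grouped by complex, in Erbb2 cells at 10 µM, Erbb2 cells at 5 µM and untransfected cells at 10 µM. Circles are genes, filled where past the test, and black lines are the medians of each complex. In untransfected cells the medians of complexes II and III lie at -0.46 and -0.49, and those of complexes I, IV and V at -0.13, -0.17 and -0.14.

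Genes that feed or build the respiratory chain were described from further lists. Of 14 tested genes of pyruvate dehydrogenase and the citric acid cycle, 1 fell in untransfected cells, against 2.13% of all features called lower. The median over the list was -0.17. The gene that fell was Pdha1, the alpha subunit of the enzyme that turns pyruvate into acetyl-CoA. Its log2 ratio was 0.24, 0.07, 0.60, 0.30, 1.16, -0.55, 0.27 and 0.21 in Erbb2 cells at 10 µM, 0.02, 0.28, 0.21 and 0.12 at 5 µM, and -0.80, -0.98, -1.26 and -1.48 in untransfected cells. The untransfected arrays lay below every other array, and run from 0.80 to 1.48 in the other dye reading, which overlaps the Erbb2 cells at 10 µM. Pdha1 was at 0.29 ± 0.15, 0.16 ± 0.22 and -1.13 ± 0.22 in the 3 groups, the last with a limma adjusted p of 0.00844, and it differed between the lines by 1.41 ± 0.26 (limma adjusted p = 0.0185). Without array 4 of the untransfected cells Pdha1 no longer passed in that group (adjusted p = 0.0638), and without array 2, 3 or 4 of them it no longer passed between the lines (adjusted p = 0.0577, 0.0649 and 0.0811).

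Of 3 tested carriers and channels of the mitochondrial membranes, Slc25a3 fell in untransfected cells, where 2.13% of all features were called lower. Slc25a3 is the carrier that brings in phosphate for ATP synthesis. It lay between -0.69 and 0.03 on the 8 arrays of Erbb2 cells at 10 µM, against -1.11, -1.01, -0.84 and -0.95 in untransfected cells, again with no overlap. The values of Slc25a3 were -0.30 ± 0.11, -0.32 ± 0.16 and -0.98 ± 0.16, the last with a limma adjusted p of 0.00302, and it stayed past the threshold without any 1 untransfected array (adjusted p from 0.0142 to 0.0244). The difference between the lines, 0.68 ± 0.20, did not pass (limma adjusted p = 0.183). As for the complex subunits, the other reading of the untransfected dyes turns the sign of Pdha1 and Slc25a3 in that group. It also changes both results between the lines. Slc25a3 then passed as lower in Erbb2 cells, at -1.28 (limma adjusted p = 0.00123). Pdha1 then did not pass, at -0.84 (limma adjusted p = 0.147).

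No gene passed in any group among 16 tested assembly factors, 8 genes of mitochondrial biogenesis and 6 enzymes that bring in electrons outside complexes I and II. At an unadjusted limma p under 0.05 there were 1, 1 and 0 of them in untransfected cells, against 11.5% of all features. In Erbb2 cells at 10 µM there were 3, 1 and 0, against 10.8%. Their medians in untransfected cells were 0.08, -0.05 and 0.02. Proteins of the mitochondrial ribosome, which translates the mitochondrial core subunits, had medians of 0.00, 0.03 and 0.05 over 53 genes in Erbb2 cells at 10 µM and 5 µM and in untransfected cells. None passed limma's test in any group. At an unadjusted limma p under 0.05 there were 3, 1 and 0, against 10.8%, 6.33% and 11.5% of all features. Proteins of the cytosolic ribosome had medians of -0.27, -0.29 and -0.60 over 59 genes, with 18, 0 and 22 past the test as lower, the last turning to higher in the other dye reading. Of all 12420 features 107, 4 and 265 passed as lower.

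Of the fibroblast markers, 9 of 10 were measured as ratios. Their median was 0.05 in Erbb2 cells at 10 µM and 0.09 at 5 µM, with 0 past limma's test in either. At an unadjusted limma p under 0.05 there were 1 and 2, against 10.8% and 6.33% of all features. In untransfected cells the fibroblast markers had a median of -0.50 and 4 fell. Of 4 measured epithelial markers 1 rose and of 3 measured blood and immune markers 1 fell in untransfected cells, and of 2 muscle markers 0 passed. Of all features 2.13% were called lower there and 2.73% in either direction. In the other dye reading each of these calls in untransfected cells changes direction. No marker list had a gene past the test in Erbb2 cells. The part of these shifts in the values of the respiratory genes was not tested. A cDNA probe can also bind transcripts of close paralogues and of expressed pseudogenes, which these genes have, and that share is not known here.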

How the data were processed

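RNA of azacytidine-treated and untreated NIH3T3 cells was set against each other on 2-colour cDNA arrays. The deposited values were taken as log2 ratios of the 2 channels, and their median lies near 0 on each array. The log base and direction are not stated. Base 2 was inferred because each array's single identical highest value lies 16.6 or 15.6 above its most repeated value, the log2 of 100000 and of 50000. How images were read, corrected and normalized is not given in the sources used here. The 1755 such cells of 325680 were taken for placeholders and dropped, 7 of them in respiratory genes, and 38737 cells were empty.

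Groups came from titles and source names. A label protocol that mentions organs and pooled animals was not used. The sign was turned where the treated RNA carried Cy3. Probes needed a value on at least 3 of 4 or 6 of 8 arrays and on both dye arrangements, and probes of a gene were averaged, which joined several probes for 17 of the 63 genes. Symbols follow the platform annotation, which can be old.

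limma 3.58.1 in R 4.3.3 fitted all 16 arrays with 3 group terms and a shared dye term, followed by eBayes, two-sided, with the Benjamini-Hochberg adjustment over 12420 features at a threshold of 0.05. No feature passed for the dye term (0 of 12420; unadjusted p under 0.05 for 1000, 4 of them respiratory genes). The procedure was tested on simulated data. The genes, lists and rules were chosen with earlier results of these data known, so no list is independent support. Named genes were those past the threshold, the 2 with the smallest p in each complex and group, Cyc1 and the Sdh genes, and up to 4 passing genes of each further list. Ndufs1, Ndufs7, Ndufs8, Atp5a1, Atp5b and Atp5e were named for their roles and Ndufb8 for the size of its difference between the lines, outside that rule and after their values were seen. Alternatives covered the dye reading, placeholders, filters, dye term, arrays in the fit, probe averaging, centring, scaling, wide arrays, eBayes, the replicate block and single arrays left out.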

Additional observations from a re-analysis of the deposited data

Results flagged for a closer look

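On 8 occasions among 103 sets of arrays of a gene in a group, 1 array stood far from the others. About 5 in 100 such sets do so by chance. In Erbb2 cells at 10 µM, Atp5o was at 2.19 on array 6, with the other arrays between -0.43 and 0.57. Sdhb was at 1.79 on the same array, with the others between -0.69 and 0.42. Atp5b was at 3.47 on it, with the others between -0.41 and 0.60. Array 6 had the widest spread of all arrays, an interquartile range of 1.36. Atp5pb was at 0.59 on array 3 of the same group, with the others between -0.25 and 0.14. Ndufaf1 was at 4.47 on array 7, with the others between -0.60 and 0.56. Ndufs8 was at -2.75 on array 5, with the others between -0.17 and 1.70. In untransfected cells, Uqcrh was at -0.58 on array 2, with the others between -0.39 and -0.36. Atp5a1 was at 0.001 on the same array, with the others between -0.36 and -0.35. None of these 8 genes passed the test in its group.

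In the dye reading used here, the response to 10 µM differed between Erbb2 and untransfected cells by limma's contrast for Uqcrq (1.36), Pdha1 (1.41) and Ndufa6 (0.94). In the other reading Ndufa6 passed with the opposite sign, and Uqcrq and Pdha1 did not pass.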

How the results depend on the processing

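With no array turned for its dye, 0 respiratory genes passed in untransfected cells, against 4 of all features (0.0322%). Between the lines 0 genes and 0 of all features then passed. The medians of the genes were then -0.0541, -0.0455 and -0.0563 in Erbb2 cells at 10 µM and 5 µM and in untransfected cells. Uqcrq and Pdha1 turned to 0.11 and 0.24 in untransfected cells and to -0.21 and -0.23 between the lines. With the untransfected arrays in the other dye, 3 genes passed there as higher with a median of 0.20, Ndufa6, Uqcrq, Atp5l, Pdha1 and Slc25a3 stood at 0.92, 0.90, 0.61, 1.13 and 0.98, and 1 gene passed between the lines, with Ndufa6, Uqcrq, Pdha1 and Slc25a3 at -0.91, -0.44, -0.84 and -1.28. These turns follow from the sign given to the arrays. With the untransfected arrays in the other dye, 2.73% of all features passed in untransfected cells and 2.83% between the lines. Slc25a3, which is not a subunit gene, also passed between the lines in the other dye reading. Between the lines 1 gene passed under a looser filter (Uqcrq), 6 with a value on all arrays (2 in Erbb2 cells at 10 µM) and 1 without the 3 widest arrays (Uqcrq). Under the looser filter Atp5l no longer passed in untransfected cells. With each probe on its own, Ndufa6, Atp5l and Cyc1 passed there, and not Uqcrq. With arrays scaled to one spread, Ndufc2 joined Ndufa6 and Uqcrq between the lines. In untransfected cells 0 passed when each group was fitted on its own arrays, which leaves fewer degrees of freedom. That fit gives no contrast between groups. The cause was not tested for the filters and the wide arrays. Without 1 array, the count in untransfected cells was 1 to 1, and between the lines 0 to 2. Placeholders kept, no dye term, centring on the median and robust moderation called the same genes.

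Arrays share replicate numbers across groups in the labels, but same-numbered arrays did not deviate together (r from -0.03 to 0.04, 0 of 12 pairs over 0.1, 3 of 12 closest to their own number). With the replicate block, 0 genes and 0 of all features passed between the lines. The block was otherwise fitted for the dose contrast alone, which held 0 genes with and without it.

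Signal over background is not known, and 4 arrays in 2 of the groups leave standard errors near 0.307, so a gene that did not pass may still have changed.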
